A study of Rattus norvegicus with 60 samples.

Results

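Prenatal alcohol exposure (PAE) was compared with control (C) in the hypothalamus of female rats at postnatal day 8 (P8). The members are the samples labelled as P8 hypothalamus of these groups, 4 PAE and 4 C, or 8 of the 60 samples in the series. The 4 pair-fed (PF) samples of the same tissue and age served as another reference, which makes 12 samples. The study asked whether alcohol before birth leaves a mark on DNA methylation in the developing hypothalamus, and sampled 4 ages and, at weaning, white blood cells. DNA carrying 5-methylcytosine was pulled down with an antibody and sequenced (meDIP-seq), so a region with more methylated DNA gives a taller peak of fragments.

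All dams were outbred Sprague-Dawley rats on their diets from gestation day 1 to 21 and on laboratory chow afterwards. PAE dams had free access to a liquid ethanol diet. For PF dams the liquid diet held maltose-dextrin instead of ethanol, and their daily ration was matched to the intake of a PAE dam. C dams ate the control diet as pellets without limit. PF therefore shares the liquid form of the diet and the amount eaten with PAE but was rationed, whereas C differs from PAE in the form of the diet and fed freely, as PAE did. Each sample is the whole hypothalamus of 1 female offspring. The 12 P8 animals came from 12 litters, taking the animal number in the labels within a breeding cohort as the litter. C6 and C8 share the number 46 but come from different cohorts. In each group, replicates 5 and 6 came from breeding cohort Dev-4 and replicates 7 and 8 from Dev-5. Replicates 5 and 7 of each group were in DNA extraction round 3 and replicates 6 and 8 in round 4, so cohort and round are balanced over the groups.

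DNA methylation at cytosines followed by guanine is set and reset while neurons and glia mature, and it helps a cell to keep a pattern of gene use through its life. Ethanol metabolism bears on the folate and methionine cycles, which supply the methyl groups. The hypothalamus directs the stress hormone axis, feeding, reproduction and body temperature, and in the rat its early weeks after birth fall in the period of rapid brain growth.

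The label was checked against peaks, since no gene expression was measured. Of 1444 regions with a peak in every P22 hypothalamus sample and in none of the P22 white blood cell samples used, the P8 samples held between 61.0% (C5) and 87.5% (PAE5). Of 3215 regions with the reverse pattern they held between 14.0% (C6) and 23.2% (C8). Each P8 sample was thus nearer to hypothalamus than to blood at this set of regions. Between 5 and 8 peaks per sample lay on chromosome Y, with the lowest number in PAE8 and the highest in C8 and PF8.

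Depth was on average higher in PAE than in C. After filtering, the C samples held 16168092, 16226307, 14697682 and 17827200 fragments (replicates 5, 6, 7 and 8, the order used throughout). The PAE samples held 18648425, 18034951, 17341169 and 17830157 fragments, and the PF samples 18289549, 17413562, 18459472 and 15733125. Every PAE library was deeper than C5, C6 and C7, and C8 lay inside the PAE range. PAE libraries had 1733855 more fragments than C on average (17963676 ± 541388 against 16229820 ± 1278396, SD, n = 4 each), or 10.7% (two-sided exact permutation test over 70 splits, p = 0.0571, with 0.0286 the smallest p possible).

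By group mean, peak numbers followed the same order as fragments. Single libraries did not always, as PF8 had fewer fragments than C5 and C6 but more peaks. The C samples had 187574, 176017, 181462 and 215175 peaks and the PAE samples 227667, 206186, 192865 and 204051. PF samples had 213438, 199444, 213370 and 196944 peaks. C5, C6 and C7 were below every PAE and PF sample, while C8 was above all samples but PAE5. The mean was 207692 ± 14541 peaks in PAE and 190057 ± 17398 in C (SD, n = 4 each), a difference of 17635 peaks or 9.28% (exact permutation test, two-sided, p = 0.171). The difference ran from 10977 peaks without PAE5 (exact p = 0.343) to 26008 without C8 (exact p = 0.0571). PF exceeded C by 15742 peaks (exact p = 0.2) and PAE exceeded PF by 1893 (exact p = 0.857).

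Within extraction round 3 the PAE samples had 25748 more peaks than C, and within round 4 they had 9523 more. Within Dev-4 the difference was 35131 peaks and within Dev-5 it was 140, so it lay almost wholly in 1 cohort. Each of these differences rests on 2 samples a group. Per 1000000 fragments the order turned round, with 11552 ± 463 peaks in PAE and 11716 ± 656 in C (SD, n = 4), a difference of -164.64 (exact permutation p = 0.657). Depth moved with the number of peaks, and its part in the later results was not tested beyond the scalings given with them. The genome covered by peaks was 112271633 bp in PAE and 100700075 bp in C, a difference of 11571558 bp (exact permutation p = 0.0571).

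**Figure D1:**
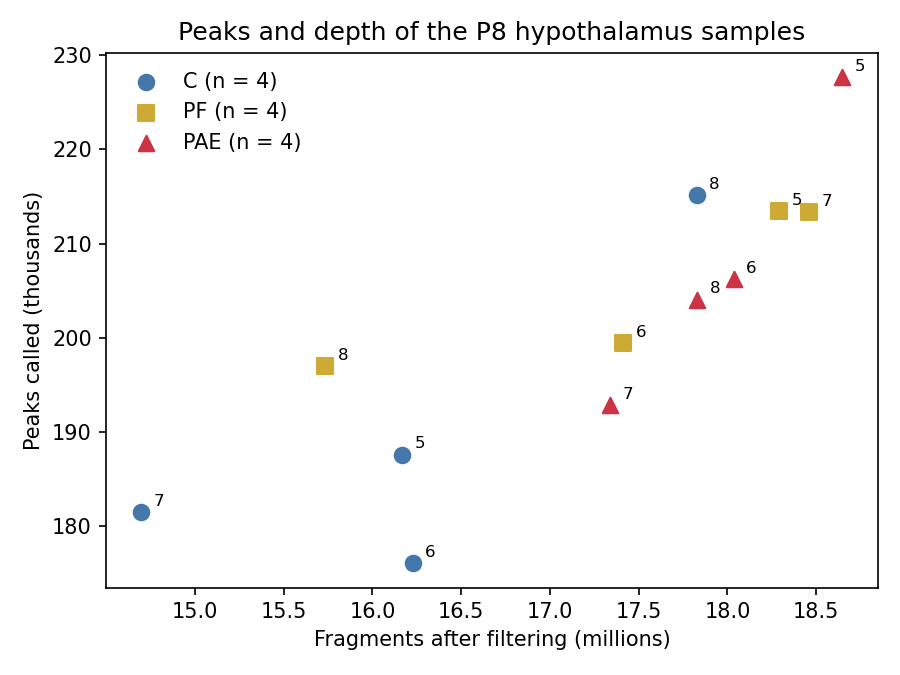
Peaks called in each P8 sample (vertical axis) against its fragments after filtering (horizontal axis, both scaled as marked), 1 point per sample with its replicate number. C5, C6 and C7 have the fewest peaks, from 176017 to 187574, and C8 with 215175 peaks lies among the PAE and PF samples.

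To compare single places in the genome, overlapping peaks of the 12 samples were merged into 438227 regions, of which 278676 had a peak in at least 3 samples and were tested. Their median length was 671 bp, from 323 to 7336 bp, and the median region had a peak in 8 samples. A peak was present in all 12 samples in 60415 regions (21.7%) and in just 3 in 37140 (13.3%). The value of a sample in a region is the height of its tallest peak in fragments, scaled between libraries. Where the authors' peak caller found no peak, the value was set to a floor of 6.59 fragments (6.585 before rounding), so differences below it could not be seen. In bulk tissue, fewer cells of a type that carries a methylated site and less methylation per cell give the same peak and cannot be told apart.

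The comparison of PAE with C asks where alcohol together with its diet changed methylation. In limma, 0 of 278676 regions (0%) passed a false discovery rate (FDR) of 0.05 in PAE vs C. No adjusted p in this comparison was below 0.0556. At an unadjusted p under 0.05, 13158 regions differed, or 4.72% of those tested. Of these, 8867 were higher in PAE (3.18% of all regions) and 4291 were lower (1.54%). At an unadjusted p under 0.01 there were 2669 regions (0.958%), and under 0.001 there were 280 (0.1%). Fisher's exact test of peak or no peak in each region gave 0 regions at an adjusted p under 0.05. With 4 against 4 samples it cannot give a p below 0.0286, which 953 of 278676 regions reached. No region could thus pass the adjustment, and this 0 decides nothing.

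The absence of calls depended on single libraries. Leaving out C8 gave 25 regions in PAE vs C at an FDR under 0.05, leaving out C7 gave 6, C5 gave 4, PAE5 gave 3 and PF7 gave 2. There was 1 region each without C6, PAE7, PAE8 or PF6, and 0 without PAE6, PF5 or PF8. PF6 belongs to neither group of this comparison, yet the smallest limma adjusted p was 3.4e-09 without it, against 0.0556 with all libraries. These calls are thus not shown to be differences that a library had hidden, and their cause was not tested. Without replicate 5 of all groups there were 2 regions, without replicate 6 there was 1, and without replicates 7 or 8 there were 0. Using fold enrichment over the local background in place of height gave 3 regions, and leaving samples without a peak out as missing gave 7. A fit with group alone and a fit with group and cohort gave 1 region each.

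The same test against PF, in which both groups had a liquid diet and only PF was rationed, gave 0 regions (0%) in limma at an FDR under 0.05, whereas 11426 (4.1%) had an unadjusted p under 0.05. PF vs C gave 0 (0%) and 13689 (4.91%). The lowest adjusted p of PAE vs PF was 0.913, and for PF vs C it was 0.173. With fold enrichment, 2 regions passed in PAE vs PF and 0 did for PF vs C, and leaving samples without a peak out as missing gave 20 and 18. Leaving out a library gave between 0 and 5 regions in PAE vs PF (5 without PF7, 3 without PAE8, 2 without PAE5, PF5 or PF8, and 1 without C7), 5 without all samples of replicate 5 and 1 without those of replicate 8. It gave between 0 and 21 in PF vs C. Without C8 there were 21, without C7 or PAE7 there were 4, without C5 there were 3, without PAE8, PF5, PF7 or PF8 there were 2, and without C6, PAE5 or PF6 there was 1. Without all samples of replicate 8 there were 2 regions in PF vs C and without those of replicate 6 there was 1.

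Differences in PAE vs C leaned upward. The median log2 difference of PAE minus C was 0.03 over all regions, with 54.1% of regions above 0 and the quantiles 0.05 and 0.95 at -0.58 and 0.74. Among regions at an unadjusted p under 0.05, 67.4% were higher in PAE. With quantile normalization the median was 0.00, 49.8% of regions were above 0 and 60.0% of those at an unadjusted p under 0.05 were higher, and with scaling by the number of fragments these values were 0.07, 58.7% and 75.2%. The lean over all regions thus depended on the scaling. The lean was shared by PF vs C, where the median was 0.03 and 62.9% of regions at an unadjusted p under 0.05 were higher in PF, and hardly seen in PAE vs PF, where the median was 0.00 and 54.1% were higher in PAE. PAE vs C and PF vs C use the same C samples. The share of higher regions was 38.7% with samples without a peak left out as missing, and 50.6% in a fit of the regions with a peak in all 12 samples. In both of these settings no missing peak counts as a low value.

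The number of samples with a peak sorted the regions. At a peak in 3 samples, 2.65% of regions were higher in PAE and 1.53% lower at an unadjusted p under 0.05. With a peak in 4 to 6 samples these shares were 3.66% and 1.82%, with 7 to 9 they were 4.18% and 1.63%, and with 10 to 11 they were 4.3% and 1.88%. With a peak in all 12 samples they were 1.07% and 0.849%, and the median difference was 0.00. Higher regions thus outnumbered lower ones most where some samples had a peak and others did not, and the part of depth in this was not tested. When regions with a peak in all 12 samples were fitted alone, 2846 of 60415 had an unadjusted p under 0.05 and 1441 of these were higher in PAE. Their spread is smaller than that of other regions, with a median SE of 0.24 for PAE minus C against 0.37 over all regions.

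Direction varied by chromosome. Chromosome X held 122 higher and 139 lower regions of 7015 (1.74% and 1.98%), with a median difference of -0.02. On the autosomes the share of higher regions ran from 2.77% on chromosome 16 to 4.04% on chromosome 12, and each autosome had more higher than lower regions. This contrast of X with the autosomes was not tested.

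The study calls a difference PAE-specific when PAE differs from both C and PF and these do not differ from each other. With the same rule at an unadjusted p under 0.05, 2640 regions (0.947%) had the pattern, 1879 higher and 761 lower in PAE. In 226 of the higher and 91 of the lower ones no PAE sample lay inside the range of the C and PF samples. The share of all regions without overlap with both C and PF was not counted. Against C alone, and without the PAE-specific rule, PAE samples lay above every C sample in 3101 of all regions (1.11%). They lay below every C sample in 2136 (0.766%). The median pattern region that was higher in PAE was 525 bp long and had a peak in 4 samples, and the median lower one was 658 bp long and had a peak in 10. The rule itself favours few peaks in the former, where PAE alone is high, and many in the latter.

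The regions that follow were chosen for the smallest p among these non-overlapping ones, so their direction and lack of overlap describe the choice. At chr19:19244068-19244501 (Rn6, as all positions here) the scaled heights in PAE were 31.4, 28.5, 37.8 and 37.3 fragments, and no C or PF sample had a peak. All PAE samples stood well above the floor, with no peak in any of the other 8 samples. The log2 difference of PAE minus C was 2.35 (SE 0.38, limma adjusted p 0.381). At chrX:5361907-5362782 the PAE samples reached 37.5, 25.8, 37.8 and 25.1 fragments, again with no peak in C or PF. PAE5 and PAE7 were the higher pair and PAE6 and PAE8 the lower, which sets extraction round 3 above round 4. The difference was 2.23 (SE 0.39, adjusted p 0.421). At chr2:218021315-218021727 the PAE heights were 23.6, 22.1, 34.7 and 31.7 fragments, and no C or PF sample had a peak. Here the 2 samples of Dev-5 were higher than the 2 of Dev-4, and the difference from C was 2.06 (SE 0.38, adjusted p 0.558). The other 3 regions, chr18:73294175-73294598, chr19:30921448-30921892 and chr4:85440050-85440482, had PAE heights from 19.2 to 28.9 fragments, no peak in C or PF, and differences of 1.96, 1.86 and 1.87. Since the value of every C sample is the floor, these differences depend on the floor and are no measure of fold change. These 6 regions also passed the filter through PAE alone.

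Among the regions that were lower in PAE, chr6:123510477-123510971 had C heights of 41.5, 31.4, 36.6 and 46.2 fragments and PF heights of 32.0, 29.4, 45.4 and 33.6. In PAE, PAE8 had a peak of 24.2 fragments and PAE5, PAE6 and PAE7 had none. C and PF overlapped each other and every PAE sample was below them. The log2 difference of PAE minus C was -2.08 (SE 0.33, limma adjusted p 0.365). At chr9:61493766-61494621 the C heights were 27.7, 27.0, 24.4 and 28.6 fragments, the PF heights 12.6, 21.6, 24.0 and 21.7, and no PAE sample had a peak. PF lay between the other groups, with PF5 the lowest of its group. The difference from C was -2.03 (SE 0.32, adjusted p 0.365). At chr4:166678755-166679230 the C heights were 25.1, 31.4, 21.1 and 18.5 fragments, the PF heights 25.2, 25.5, 18.7 and 22.7, and PAE had no peak. C and PF overlapped, with C6 above every PF sample, and the difference of PAE from C was -1.84 (SE 0.31, adjusted p 0.409).

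In the other 3 lower regions PAE had at most 1 peak. At chr7:68889333-68889855 PAE5 had 20.1 fragments and the other PAE samples no peak, against 21.1 to 31.4 in C and 23.5 to 35.7 in PF. At chr7:28084717-28086061 PAE5 had 10.5 fragments, against 22.7 to 45.3 in C and 10.7 to 50.0 in PF. At chr1:105712578-105713083 no PAE sample had a peak, against 17.6 to 20.0 fragments in C and 20.5 to 31.4 in PF. PAE was the lowest group in each, at chr7:28084717-28086061 by a narrow margin from PF5 and PF7. The log2 differences of PAE minus C were -1.65, -2.03 and -1.48, with adjusted p of 0.643, 0.643 and 0.749.

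**Figure D2:**
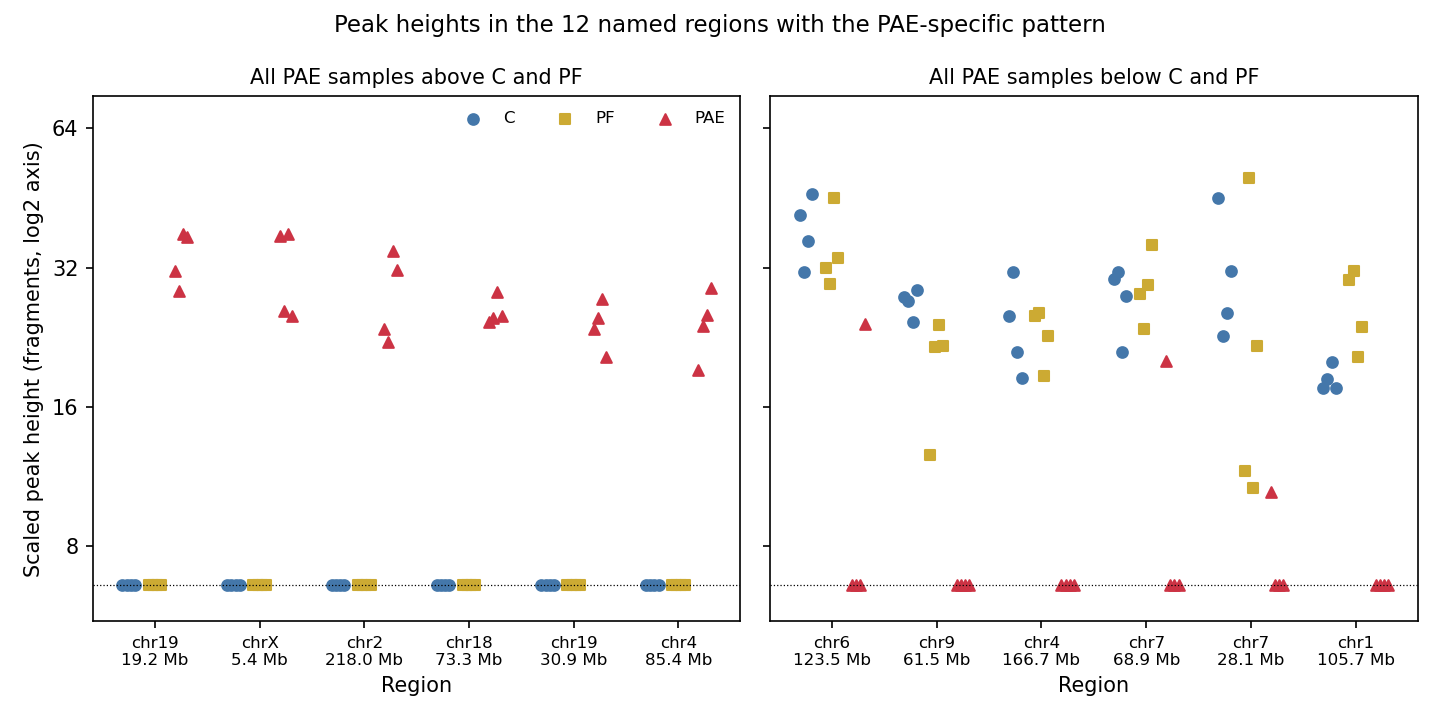
Scaled peak height in fragments (vertical axis, log2 scale) of each C, PF and PAE sample in the 6 named regions where PAE was higher (left) and the 6 where it was lower (right), with the dotted line at the floor of 6.59 fragments given to a sample without a peak. PAE heights run from 19.2 to 37.8 fragments on the left with all other samples at the floor, and on the right most PAE samples are at the floor.

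The region with the smallest adjusted p did not have this pattern. At chr20:35425002-35425501 the PAE heights were 34.0, 29.4, 29.4 and 29.8 fragments, the PF heights 25.2, 26.5, 24.9 and 32.5, and no C sample had a peak. PAE and PF overlapped, through PF8, and both were far above C. The log2 difference was 2.22 in PAE vs C (SE 0.27, limma adjusted p 0.0556), 2.04 in PF vs C and 0.18 in PAE vs PF. It was named after its values were seen.

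Regions with a peak in all 12 samples need no floor. The one with the smallest p among those higher in PAE, chr1:54141757-54142326, had C heights of 46.5, 78.9, 53.2 and 39.7 fragments, PAE heights of 109, 94.7, 78.8 and 102, and PF heights of 73.6, 94.1, 88.9 and 60.6. PAE was high in every sample but overlapped C, since C6 was marginally above PAE7, and PF lay in between. The log2 difference of PAE minus C was 0.86 (SE 0.18, limma adjusted p 0.708) and that of PF minus C was 0.57. At chr5:134406076-134407360 the C heights were 31.4, 34.6, 23.3 and 31.4 fragments, the PAE heights 49.7, 68.1, 37.8 and 59.6, and the PF heights 34.9, 56.9, 50.7 and 65.0. All PAE and all PF samples were above all C samples, and PAE and PF overlapped. The differences were 0.82 in PAE vs C (SE 0.17, adjusted p 0.74) and 0.76 in PF vs C. The third, chr18:71139139-71140004, had 47.8, 60.6, 174 and 79.5 fragments in C, 250 in PAE5, 169 in PAE6, 172 in PAE7 and 247 in PAE8, and 59.1, 177, 158 and 162 in PF. C7 stood apart from the other C samples at the level of PAE, so the groups overlapped, and PF6 was above PAE6 and PAE7. The difference was 1.37 in PAE vs C (SE 0.30, adjusted p 0.801) and 0.69 in PF vs C.

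On the lower side, chr14:101404990-101405715 had C heights of 60.3, 54.1, 64.3 and 57.3 fragments, PAE heights of 36.7, 35.9, 46.3 and 40.0, and PF heights of 43.6, 37.3, 53.4 and 43.3. Every PAE and every PF sample was below every C sample, and PAE and PF overlapped. The log2 difference of PAE minus C was -0.58 (SE 0.14, limma adjusted p 0.915). At chr12:91151-92564 the C heights were 88.0, 89.8, 68.7 and 73.0 fragments, the PAE heights 53.2, 61.6, 51.5 and 56.8, and the PF heights 74.6, 71.6, 72.0 and 72.5. Here PF lay within the range of C and all PAE samples were below both, with a difference of -0.51 from C (SE 0.12, adjusted p 0.921). The third region, chr9:14801311-14802450, had 58.2 to 77.6 fragments in C, 33.8 to 60.6 in PF and 23.1 to 67.1 in PAE, where PAE6 overlapped C and PAE7 and PAE8 were the lowest, and its difference was -0.87 (adjusted p 0.968).

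Counting peaks alone needs no scaling. Of the 278676 tested regions, 733 had a peak in all 4 PAE and no C samples, and 220 in all C and no PAE samples. For PF against C these numbers were 731 and 235, and for PAE against PF they were 460 and 419. The excess of peaks over C was thus of similar size in PAE and PF, and the libraries of both were deeper than those of C on average. Of the 733 regions, 78 had no peak in PF, 75 had a peak in all PF samples and 580 had it in some. Of the 220 regions, 28 had no peak in PF and 23 had it in all PF samples. Asking for 1 sample less raised the 733 to 1466, 1690, 2010 and 1730 without PAE5, PAE6, PAE7 and PAE8, and to 1400, 1333, 1387 and 2092 without C5, C6, C7 and C8. The PAE heights in the 733 regions had a median of 14.7 fragments, against 17.9 for PAE peaks over all regions. A region with a peak in every sample of a group already passes the filter of 3 or more samples through that group.

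Genes enter only through the study's lists of differentially methylated regions (DMRs), since no Rn6 annotation was at hand. One list was drawn up by the study over all 4 ages. These P8 samples were used to choose it, so its direction at P8 is not independent evidence. The other list holds regions that changed in the same way in hypothalamus and white blood cells at P22, in other animals, of which some share a litter with P8 animals. No region was on both lists.

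Of the all-age list, 34 of 47 DMRs listed with more methylation in PAE and 27 of 71 with less overlapped a tested region. In the 34 regions PAE was higher than C in 33 (97.1%, against 54.1% of all regions) and the median log2 difference was 0.53, against 0.03 over all regions. At an unadjusted p under 0.05, 12 were higher and 0 lower, beside 3.18% and 1.54% of all regions, and in 6 all PAE samples were above all C samples, beside 1.11%. In these regions the median log2 height was 3.11, 2.72, 2.72 and 3.88 in C, 4.42, 4.31, 4.28 and 4.48 in PAE, and 3.76, 3.43, 3.74 and 3.64 in PF. All 4 PAE samples were above all C and PF samples, and C and PF overlapped. The median of PAE minus C was 0.25 with samples without a peak left out as missing, 0.24 in the 6 regions with a peak in all 12 samples, 0.35 with only peaks at q under 0.001 and 0.76 with the floor at 0.5 of its height. PAE minus PF had a median of 0.52 and PF minus C one of 0.02. Of the 34 regions, PAE5 had a peak in 34 and PAE7, the fewest of its group, in 24, while C had a peak in 14 (C7) to 23 (C8).

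In the 27 regions listed with less methylation, PAE was lower in 23 (85.2%, against 45.9% of all regions) and the median log2 difference was -0.37. Of the 27, 1 was lower at an unadjusted p under 0.05 (1.54% of all regions were) and in none were all PAE samples below all C samples (0.766% of all regions). The median log2 height was 3.33, 3.70, 2.72 and 3.59 in C, 2.72, 3.05, 2.72 and 2.72 in PAE, and 3.65, 3.56, 3.15 and 3.44 in PF. C7 was at the floor with 3 of the PAE samples, so C and PAE overlapped. With the floor at 0.5 of its height the median was -0.63, with only peaks at q under 0.001 it was -0.19, with samples without a peak left out as missing it was -0.35, and in the 4 regions with a peak in all 12 samples it was -0.32. No region of either list passed an FDR of 0.05, and the smallest adjusted p was 0.89 among those with more and 0.968 among those with less methylation.

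The P22 list gave medians near that of all regions. Of its DMRs, 75 of 105 with more methylation in PAE at P22 overlapped a region at P8, and PAE was higher than C in 39 of these 75 (52.0%) with a median difference of 0.04. At an unadjusted p under 0.05, 5 were higher and 1 was lower, beside 3.18% and 1.54% of all regions. Of its DMRs with less methylation, 142 of 194 overlapped a region, PAE was lower in 73 (51.4%), the median difference was -0.01, and 2 of the 142 were higher and 2 lower at an unadjusted p under 0.05. The median log2 height of the 75 regions ran from 2.72 to 3.79 in C and from 3.36 to 3.71 in PAE, and that of the 142 regions from 3.73 to 4.03 in C and from 3.69 to 3.90 in PAE. In both sets the ranges of the groups overlapped. The listed regions thus showed no common direction at P8, and the sign of both medians changed under some settings, to -0.15 for the former in a fit of regions with a peak in all 12 samples and to 0.05 for the latter with scaling by the number of fragments.

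**Figure D3:**
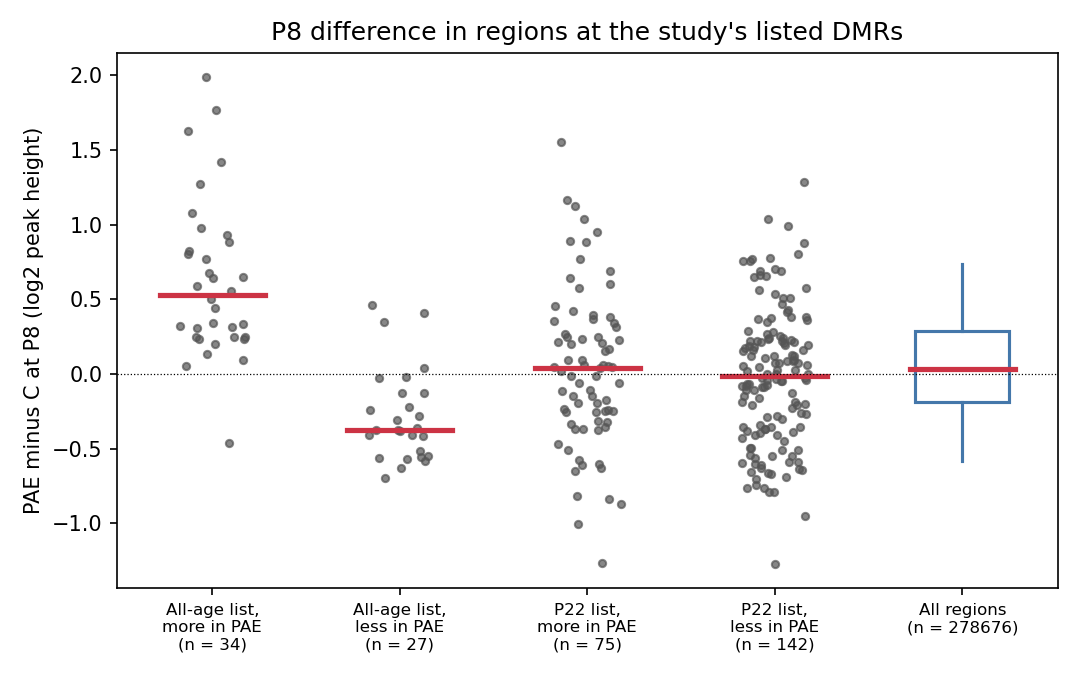
Log2 difference of PAE minus C at P8 (vertical axis) in each region that overlaps a DMR of the study, by list and listed direction, with the median as a red line, beside a box with the median, quartiles and the quantiles 0.05 and 0.95 (whiskers) over all 278676 regions. The medians are 0.53 and -0.37 for the all-age list, 0.04 and -0.01 for the P22 list and 0.03 over all regions.

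The PAE-specific pattern at P8, which 0.947% of all regions had, was present in 5 of the 61 regions of the all-age list (8.2%) and in 2 of the 217 of the P22 list (0.922%). The P22 list was thus at the level of all regions, and the all-age list was chosen with these samples. At chr3:165424291-165424882 the PAE heights were 43.6, 37.7, 38.9 and 37.3 fragments. C7 had 29.9, C8 had 20.3, PF7 had 20.5 and PF8 had 28.1 fragments, and replicates 5 and 6 of C and PF had no peak. In C and PF the peak was thus present in cohort Dev-5 alone, while PAE had it in both cohorts and above all other samples. The difference from C was 1.62 (SE 0.38, limma adjusted p 0.89). At chr17:12596702-12597171 the PAE heights were 22.7, 32.2, 29.4 and 25.1 fragments, with 14.1 in C6, 19.6 in PF7 and no peak in the other C and PF samples. PAE was above all others, by a difference of 1.77 from C (SE 0.47, adjusted p 0.968). Of the remaining all-age regions, Un_KL568409v1:220286-220667 and chrX:123442620-123443059 had a peak in PAE5, PAE6 and PAE8 and in no other sample, and the differences were 1.42 and 0.56. Both passed the filter of 3 samples through PAE alone, so their direction was set by the filter.

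The pattern region in a gene was listed with less methylation and lies in an intron of Mid2, which codes for a ubiquitin ligase that binds microtubules (chrX:112031243-112031834). Its heights were 21.4, 17.3, 15.5 and 19.4 fragments in C, 14.0, 7.36, 9.46 and 16.8 in PAE, and 20.3, 24.5, 24.0 and 19.5 in PF. PAE was low in every sample and below all PF samples, but PAE8 overlapped C. The log2 difference was -0.69 in PAE vs C (SE 0.33, limma adjusted p 0.968) and -0.96 in PAE vs PF. The regions of the P22 list with the pattern, both listed with more methylation, differed by 1.55 (chr5:83649730-83650110) and -1.27 (chr1:196969132-196969787).

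Signalling genes come first by role. Drd4 codes for a dopamine receptor that lowers cyclic AMP, and its listed DMR spans an exon and the 3′ untranslated region (chr1:214281081-214281659 here). The PAE heights were 7.86, 11.0, 12.6 and 10.2 fragments, PF5 had 9.68 and PF7 7.12, and no C sample, nor PF6 or PF8, had a peak. All PAE samples were above all C samples by small peaks near the floor, and PF overlapped PAE. The log2 difference of PAE minus C was 0.64 (SE 0.25, limma adjusted p 0.968), and that of PAE minus PF was 0.48. At P15 the same difference was -0.12 and at P22 it was 0.14, with no value at P1. The study also designed a bisulfite pyrosequencing assay, which it places in the 3′ untranslated region within this DMR. The results of that assay were not analysed here, and its amplification primers are shown, 5′ to 3′, to identify it. They are designed on bisulfite-converted DNA, in which unmethylated cytosines read as T.
Drd4 F1: agtttggaagggtgaaagg
Drd4 R1: aacaaaaaacctccctcttttc

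Of the 19 genes of the dopamine, ion channel and synapse list, 14 had a DMR that overlapped a P8 region, in 17 regions. Of these, 4 regions were of the all-age list, with differences from 0.20 to 0.64, and 13 of the P22 list, with differences from -0.84 to 0.89 and 5 of 13 higher in PAE. In the listed direction were 3 of the 4 and 6 of the 13, and Lpar1, higher by 0.46, was the all-age region against it. Drd4 and Asic2 were at an unadjusted p under 0.05 (4.72% of all regions were), and Drd4 was the one with no overlap between PAE and C, where PAE was above all C samples in 1.11% of all regions and below them in 0.766%. Asic2, an acid-sensing sodium channel, had a peak of 10.1, 11.1 and 10.2 fragments in C5, C7 and C8 and no peak in any other sample (chr10:68822977-68823496). PAE and PF were thus alike at the floor, C6 with them, and the difference of PAE and of PF from C was -0.50 each (SE 0.20). The Asic2 region passed the filter through C alone. Hcn2, a channel opened by hyperpolarization that paces firing, had 39.0, 45.4, 52.1 and 50.8 fragments in C 46.3, 56.1, 59.9 and 53.1 in PAE, and 38.2 to 54.1 in PF (chr7:12861516-12862551). PAE was above C within each replicate number, but the groups overlapped, with a difference of 0.20 (SE 0.15, adjusted p 0.98).

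Tpcn1, a cation channel of endosomes and lysosomes, had 29.7, 27.6, 27.3 and 25.1 fragments in PAE, 41.0 in C7, 26.8 in C8 and no peak in C5 or C6, while PF6 had 32.4 and PF7 no peak (chr12:41558914-41559420). C spanned the whole range, from no peak to the tallest one, and the difference was 0.89 (SE 0.54, adjusted p 0.968). At the other end, 1 of 3 Caln1 regions, chr12:29638359-29639506 in an intron of this calcium-binding protein gene, had 22.6, 25.5 and 22.2 fragments in C5, C7 and C8, 28.8 in PAE5, 18.4 to 20.5 in PF and no peak in C6 or the other PAE samples. PAE5 was the tallest of all while its group was low, and the difference was -0.84 (SE 0.48, adjusted p 0.968). The other Caln1 regions differed by 0.18 and -0.25. The regions in Anks1b, Ano4, Camta1, Cntnap5c, Dscam, Kcnd3, Lpar1, Lrrtm4 and Magi2, which hold synaptic scaffold and adhesion proteins, a lipid receptor, channels and a transcription factor, had differences from -0.60 to 0.46. In Gnao1, Kcnmb4, Scn11a, Dlgap1 and Slc4a10 no tested region overlapped the DMR.

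Among the 8 immune genes, 3 had an overlapping region. Ccrl2 codes for a chemokine receptor-like protein that binds chemerin, and its region at an intron and exon boundary is on the all-age list (chr8:119324637-119325727). Its heights were 16.3, none, 18.8 and 10.2 fragments in C, 16.6, 20.2, 32.6 and 18.6 in PAE, and 16.5, 15.7, 16.9 and 13.0 in PF. PAE7 was the highest of all samples, C6 had no peak, and C7 overlapped the lower PAE samples. The difference from C was 0.83 (SE 0.34, adjusted p 0.968). Tifa, an adaptor in signalling to NF-kappaB, and Usp25, a deubiquitinase, are on the P22 list with more methylation, and differed by -0.24 and 0.37 at P8. For Il20ra, Ifih1, Il18r1, Nlrp1a and Fgf9 no tested region overlapped the DMR.

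Of 7 metabolic genes or gene families, 5 had an overlapping region. None of these was at an unadjusted p under 0.05, where 4.72% of all regions were, so that none in 5 says little. Adh4, an alcohol dehydrogenase, is listed with less methylation at P22. At P8 its heights were 25.1 in C5, 15.7 in C8, no peak in C6 and C7, and 14.0, 22.1, 21.0 and 16.8 fragments in PAE, with a peak in PF5 alone of PF (chr2:243719405-243719940). C5 was above all PAE samples and the groups overlapped, with a difference of 0.67 against the listed direction (SE 0.49, adjusted p 0.979). Pgm1, which interconverts glucose phosphates, had 27.1, 19.3, 20.0 and 27.0 fragments in PAE, 23.9, 22.2 and 15.7 in C5, C7 and C8, 22.3 in PF5, 17.3 in PF8, and no peak in C6, PF6 or PF7 (chr5:118777308-118777827). The groups overlapped and the difference was 0.59 (SE 0.45, adjusted p 0.981). Pde7b and Pde8b (phosphodiesterases of cyclic AMP) differed by -0.19 and -0.82, both against the listed direction. Ugt1a, a family of enzymes that attach glucuronic acid to drugs and bilirubin, is listed with less methylation at P22 through a DMR that spans several of its isoforms (chr9:95301486-95302090 here). C5 had 15.1 fragments and C6 8.65, PAE5 13.1, PAE7 11.6 and PAE8 14.9, and PF5 14.5, with no peak in the other samples. The groups overlapped, and the difference from C was 0.35 against the listed direction (SE 0.40, adjusted p 0.981). For Tbxas1 and Msra no tested region overlapped the DMR.

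Of 9 genes of the vessel wall and matrix, 2 had an overlapping region, both listed with less methylation at P22. Adamts9, a metalloprotease of the matrix, differed by 0.69, through peaks in PAE5 and PAE7 and in no C sample. PF6 and PF7 had a peak as well, and PAE minus PF was 0.22. Sema3e, a guidance cue for vessels and axons, differed by -0.14. Both differences from C were at an unadjusted p above 0.05. For Plvap, Nid2, Podxl, Hpse2, Cdh6, Tns3 and Palmd no tested region overlapped the DMR.

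Regions that differed at P8 were looked up in the other ages, in other animals. At P15 and P22 some of these share a litter with P8 animals. Of the 2640 pattern regions, 2391 had a value at P1, and PAE minus C had the same sign there in 1199 (50.1%), against 50.2% of all regions. At P15 it had the same sign in 1171 of 2340 (50.0%, all regions 50.0%) and at P22 in 1081 of 2106 (51.3%, all regions 50.5%). Over both directions together, the share with the same sign was thus close to that of all regions at each age. Among pattern regions higher in PAE it was 50.95%, 47.35% and 51.93% at P1, P15 and P22. Among those lower in PAE it was 48.41%, 55.67% and 50.2%, and the split by direction was not tested. Without the samples of litters shared with P8, the share over both directions was 50.2% at P15 and 51.1% at P22. With a peak in all 12 P8 samples, 153 pattern regions had the same sign in 47.1%, 55.6% and 58.2% at P1, P15 and P22, against 50.8%, 50.3% and 50.8% of all such regions.

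Whether PAE minus C at P8 differed from its mean over P1, P15 and P22 was tested in a fit of all 48 hypothalamus samples. Litters shared between P8, P15 and P22 had no term in this fit, so their samples were treated as independent. The regions were those with a peak in 3 or more of the 12 P8 samples, and the other ages had no part in choosing them. The set thus favours places with peaks at P8. PAE minus C at P8 differed from this mean in 1 of 278676 regions (0.000359%) at an FDR under 0.05 in limma. At an unadjusted p under 0.05 it did in 13827 of the 278676, a threshold that about 1 in 20 regions pass where nothing differs. That region, chr13:110838759-110839269, had 12.2, 12.0, 15.8 and 14.0 fragments in PAE and 10.7 in PF7, with no peak in C or the other PF samples. PAE was thus above C by low peaks near the floor. Fitted age by age, PAE minus C was 1.02 at P8, -0.21 at P1 and -0.07 at P15, with no value at P22, where no PAE or C sample had a peak. The difference between P8 and the mean of the other ages was 0.90 (limma adjusted p 0.0319). It comes from the joint fit, with its own scaling, floor and terms for round and cohort and with the P22 samples of PAE and C at the floor, and so is not the difference of the values by age. The region was named after its values were seen. Leaving out PAE5, PAE8, PAE6, C8, PAE7, C6, C5, C7, PF6 or PF7 gave 26, 25, 16, 15, 13, 11, 8, 6, 5 and 3 regions, and leaving out PF5 or PF8 gave 1. Among the 153698 regions with a peak in 24 or more of the 48 samples there was 0 (5983 at an unadjusted p under 0.05). A group whose samples are all at the floor has no spread of its own, and chr13:110838759-110839269 is of this kind in C. Its PAE peaks alone were enough to pass the filter.

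Along the genome, the median window of 1 Mb with 20 or more regions had 2.83% of its regions higher and 1.35% lower in PAE at an unadjusted p under 0.05 (2752 windows). The window with the largest share of lower regions was chr15:5000001-6000000, with 20 of 100 regions lower and 0 higher. Its median log2 height was 5.42, 4.84, 4.35 and 4.69 in C, 4.66, 4.20, 4.77 and 4.60 in PAE, and 4.28, 4.59, 4.26 and 4.54 in PF. C5 was the highest of all and C7 was below 3 of the PAE samples, so the groups overlapped. Single libraries moved the share: it was 10.2% without C5, 12.0% without PAE6, 29.6% without PAE7 and 32.7% without C7, and without all samples of replicates 6 or 7 it was 11.3% or 34.7%. The lower regions next in share were in chr13:4000001-5000000, with 4 of 28 (14.3%), while 2 were higher. This share was 7.14% without C6 or PAE7, and 7.41%, 3.57% and 7.41% without all samples of replicates 5, 6 and 7.

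Among windows with higher regions, chr4:108000001-109000000 had 7 of 47 (14.9%), while 1 was lower. Its median log2 height was 2.72, 3.11, 3.15 and 3.35 in C and 3.50, 3.34, 3.53 and 3.48 in PAE, where C8 overlapped PAE6. In PF it was 3.28, 3.29, 3.42 and 3.57, which overlapped PAE, with PF8 above every PAE sample. The share was 8.7% without C5, C6 or PAE6 and 9.3% without PAE5, and 4.88%, 2.27% and 9.3% without all samples of replicates 5, 6 and 7. The next, chr7:21000001-22000000, had 3 of 22 (13.6%), but 9 of its 22 regions were above 0 and the median difference was -0.03. This share was 4.55% without C7 (1 region) and 4.76% without all samples of replicate 6. These windows hold few called regions, and neighbouring regions share their libraries, so the shares are descriptions.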

How the data were processed

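The deposited files are peak lists, 1 per sample. Per the file headers and the labels, the authors aligned paired reads to Rn6 with BWA, removed duplicate, unpaired and low-quality reads with SAMtools, and called peaks in each sample without an input control with MACS2 (version 2.1.0.20140616, threshold q-value 0.05). The deposited signal is the coverage in fragments at a peak summit, not scaled to depth. The deposited ratio is the fold enrichment of that height over the local background, and MACS2 also gave the deposited p-value and q-value of each summit, both as -log10.

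From these, summits of 1 peak were joined and the peaks of the 12 P8 samples that overlapped by 1 bp or more were merged. Each library's factor was its median log ratio to the average library, from the regions where all 12 had a peak. A missing peak took the floor, which is the lowest scaled height of the median library, and heights were put on a log2 scale. Regions where 3 or more samples had a peak were fitted in limma 3.58.1 (R 4.3.3) with group, extraction round and cohort, empirical Bayes moderation with a trend, and Benjamini-Hochberg adjustment over all regions. Single values per sample were compared by exact permutation tests over all splits (python 3.11.15 with numpy 2.4.6 and pandas 2.3.3). Intervals of shares came from scipy 1.17.1, and figures were drawn with matplotlib 3.10.9. The fits were tested on simulated data.

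Named regions were the 6 with the smallest p in each direction among regions with the PAE-specific pattern and no PAE sample inside the range of C or PF, the 3 in each direction among regions with a peak in all 12 samples, and the 2 windows with the largest share in each direction. Genes were named from role lists, through the study's DMRs, and 2 genes withheld for evaluation were left out. The members and lists were chosen with earlier results of these data known. Replicate numbers are shared between groups: deviations from group means had correlations across regions, which are not independent replicates, of -0.05 to 0.02 between samples with the same number (12 pairs) and -0.07 to 0.06 between others (36 pairs), so samples were treated as unpaired and the number was tried as a block. Alternatives changed the peak threshold, overlap, filter, floor, scaling, measure, model terms and libraries. From the study's lists only position, direction, gene symbol and location were used. No Rn6 genome or annotation was at hand, so no sequence was read by position and regions outside the lists were not assigned to genes. Read counts and the study's filter for cell-type genes were not used. The depth of each library, from 14697682 to 18648425 fragments, limits which peaks are called.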

Additional observations from a re-analysis of the deposited data

Results flagged for a closer look

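Samples that stood apart from the rest of their group were looked for in 96 groups of 4. These came from peak and fragment numbers, the check of tissue, the medians of the P22 list with less methylation, and the named regions, genes and windows. The measure was the gap of the highest or lowest sample to its neighbour as a share of the whole range. In 5 groups without a sample at the floor this share was above Dixon's critical value for 4 samples. Groups with a sample at the floor are not among these 5. Some of them exceed that value too, such as PAE at chr6:123510477-123510971, where PAE8 alone had a peak. Chance flags about 1 in 20 groups, and the count of 5 is not set against this. PF5 was the lowest PF sample at chr9:61493766-61494621 (share 0.834) and at chr18:71139139-71140004 (0.896). PAE5 was the highest PAE sample at chr20:35425002-35425501 (0.914), where the other PAE samples were nearly equal. C5 was the lowest C sample in the Caln1 region chr12:29644184-29645247 (0.854), and PF8 the lowest PF sample in the window chr7:21000001-22000000 (0.898).

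Among regions chosen by their P8 peaks, PAE minus C differed between P8 and the mean of the other ages at chr13:110838759-110839269 (limma adjusted p 0.0319). All C samples were at the floor there, with no spread, and at P22 no PAE or C sample had a peak. Among regions with a peak in 24 or more of the 48 samples, 0 differed.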

How the results depend on the processing

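Of 337 values under other settings, 260 were within the limit set for their kind and 77 were not. The limits were the same sign and the same side of the threshold for the difference in peaks (exact permutation test), 1.5 times for counts, the spread between samples for list medians, and the 95% interval of the share for shares. A median near 0 could thus change sign within its limit. At an FDR under 0.05 (main values 0), PAE vs C gave 3 regions with fold enrichment, 7 with missing peaks left out, 1 with group only and 1 with cohort only, and 0 to 25 when libraries were left out. PAE vs PF gave 2 with fold enrichment, 20 with missing peaks left out and 0 to 5 without a library. PF vs C gave 18 with missing peaks left out, 1 with group only, 2 with sequencing pool added and 0 to 21 without a library. Regions with a peak in all 12 samples gave 2846 in PAE vs C at an unadjusted p under 0.05 and 491 with the PAE-specific pattern, in a fit of these regions alone with its own estimate of the spread. In the fit of all regions 649 of them were higher and 513 lower in PAE vs C at an unadjusted p under 0.05.

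With the replicate block in place of round and cohort, 0 regions passed an FDR of 0.05 in each comparison, and 13034 in PAE vs C and 2618 with the pattern had an unadjusted p under 0.05, against 13158 and 2640 without the block. The block was not run for the difference between P8 and the other ages.

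The median of the all-age DMRs with less methylation was -0.63 at 0.5 of the floor, a move from -0.37 larger than the spread between samples, and -0.19 with only peaks at q under 0.001. That of the all-age DMRs with more methylation (0.53) was 0.25 with missing peaks left out, 0.24 in the 6 regions with a peak in all 12 samples, 0.35 with only peaks at q under 0.001 and 0.76 at 0.5 of the floor. Apart from the -0.63, the moves of the list medians were smaller than the spread between samples, although the medians of the P22 list, near 0, changed sign under some settings. The difference between P8 and the other ages was called in 0 regions with a peak in 24 or more of the 48 samples, and in 1 to 26 without a library. The difference in peaks became -164.64 per 1000000 fragments, and was 10977 to 26008 without a library. Regions with a peak in all PAE and no C samples numbered 1333 to 2092 without a library, since fewer samples had to meet the rule. With a peak in all 12 samples, the share of pattern regions with the same direction was 53.6% over the other ages together, and 47.1%, 55.6% and 58.2% at P1, P15 and P22. The highest share of lower regions was 5.23% in windows of 5 Mb, and 10.2% to 34.7% on chromosome 15 without a library or all samples of a replicate number, and that of higher regions on chromosome 4 was 2.27% to 15.9% in the same way. Leaving out libraries was added for the windows after seeing the data. Except where a reason is given, the cause was not tested.

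With 4 samples a group and a median SE of 0.37 on the log2 scale, small differences were not detectable, and peaks below the authors' threshold are not seen. Libraries of C were less deep than those of PAE on average, and the part of depth was not tested. Heights at the floor have no spread, so adjusted p-values there depend on the trend of the fit. Genes are known only at listed DMRs.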
